A study of Homo sapiens with 12 samples.

Results

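MUC1 and 7 other mucin genes, MUC2, MUC4, MUC12, MUC13, MUC15, MUC16 and MUC20, were followed in 12 RNA-seq libraries of head and neck squamous cell carcinoma (HNSCC) cells. They were taken by symbol and are 8 of the 39368 gene symbols in the count table of each cell line, and all 8 were found. Both lines, CAL27 and HSC3, are established and HPV-negative, and both carried tet-MUC1shRNA, 1 shRNA against MUC1 in a vector that expresses it when doxycycline (DOX) is added. The groups were CAL27 with vehicle (0.1% DMSO), CAL27 with 500 ng/ml DOX, HSC3 with vehicle and HSC3 with the same DOX dose, with 3 libraries of triplicate cultures per group after 7 days. All cells carried the puromycin resistance vector, and whether they were a pool or 1 clone is not given in the sources used here. CAL27 cells grew in DMEM and HSC3 cells in MEM, so cell line and medium cannot be told apart. Libraries of cells with a scrambled shRNA were not analysed here, so the effects of DOX itself, of this shRNA and of the loss of MUC1 cannot be told apart. The questions were how much of each mucin the cells held, how far MUC1 fell, and whether the other mucins fell with it or rose in its place.

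Mucins are large glycoproteins whose backbones hold stretches rich in serine, threonine and proline that carry dense O-linked sugars. The membrane mucins MUC1, MUC4, MUC12, MUC13, MUC15, MUC16 and MUC20 are anchored in the apical surface of epithelial cells, where they form a glycocalyx and can signal, while MUC2 is the gel-forming mucin of intestinal mucus. MUC1 is cut into an extracellular MUC1-N and a transmembrane MUC1-C subunit, and MUC1-C can reach the nucleus and act on transcription. In carcinomas the mucins lose their apical position and are known as tumor markers, with the shed part of MUC16 measured in blood as CA-125. MUC16 binds mesothelin, and MUC4 is a partner of ERBB2.

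The repeated sequence that makes a gene a mucin also bears on how its reads can be counted, and 3 repeats are shown for that reason. Each is 1 unit of the tandem repeat of the reference transcript, read 5′ to 3′ on the coding strand of GRCh38 in exons of GENCODE v44. No part is set in capitals because the whole unit is the repeat. The MUC1 unit of 60 bases lies at chr1:155191948-155192007 (minus strand), the MUC4 unit of 48 bases at chr3:195788183-195788230 (minus strand) and the MUC20 unit of 57 bases at chr3:195725148-195725204 (plus strand).
MUC1 repeat unit: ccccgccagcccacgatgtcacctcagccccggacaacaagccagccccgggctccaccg
MUC4 repeat unit: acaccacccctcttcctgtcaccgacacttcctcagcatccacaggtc
MUC20 repeat unit: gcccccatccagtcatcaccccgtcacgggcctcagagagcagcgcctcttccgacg
In the reference the repeat took up 10.4% of the MUC1 transcript, at 189 bases with 1 exact copy of the unit. It took up 33.5% of the MUC4 transcript, where 8 copies of the unit are exact, and 27.9% of the MUC20 transcript, where 10 are exact. How many copies the genes of CAL27 and HSC3 cells hold is not given in the sources used here, so these values describe the reference only. For each gene 1 reference transcript was searched. Of all its words of 50 bases, none recurred within MUC1, MUC2, MUC13 or MUC15, but 62.9% did in MUC12, 28.9% in MUC4, 22.5% in MUC20 and 1.07% in MUC16. For MUC2 the transcript searched has 4209 bases, while the longest one annotated has 12667, so repeats in the rest of MUC2 were not searched for. MUC20 is the member whose counts are least certain. Of its words, 75.7% also occurred in another gene, 53.6% in the pseudogene MUC20P1 and 37.2% in the long noncoding RNA MUC20-OT1, which covers 27.1% of the exon bases of MUC20 on the same strand. Words of MUC1, MUC2, MUC4, MUC13 and MUC16 occurred in no other gene. On the opposite strand, MUC15 shares 4.88% of its exon bases with ANO3 and MUC12 shares 1.45% with MUC12-AS1, and the use of strand in counting is not given in the sources used here.

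The 8 genes are spread over several chromosomes of GRCh38. MUC1 is at chr1:155185824-155192916 on the minus strand. MUC20, at chr3:195720884-195741123, and MUC4, at chr3:195746765-195811973, are next to each other on opposite strands, while MUC13 is elsewhere on the same chromosome at chr3:124905442-124953819. MUC12 is at chr7:100969565-101018939, beside MUC3A and MUC17. MUC2 (chr11:1074875-1110511) stands in the cluster of the gel-forming mucins, MUC15 is at chr11:26559032-26572263, and MUC16, the longest, is at chr19:8848844-9010390.

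The libraries held 89730914 to 169065103 counts, with 19128 to 24685 genes detected. A low count was estimated to stand for fewer molecules in HSC3 cells. From how often genes with an expected count of 8 to 16 had none, 1 molecule was estimated to give 2.45 to 3.33 counts in CAL27 libraries, 4.18 to 7.43 in HSC3 vehicle libraries and 8.93 to 17.2 in HSC3 DOX libraries, so HSC3 values with DOX are the least precise. The 8 squamous epithelial markers, among them KRT5, KRT14 and TP63, summed to 6991 to 7183 CPM (counts scaled to library size) in CAL27 vehicle libraries and 5373 to 5968 in HSC3 vehicle libraries. With DOX they summed to 3272 to 3473 and 2418 to 2854 CPM. Of the 8, 5 in CAL27 and 4 in HSC3 cells were called lower, where 5.11% and 4.40% of all genes tested were, with log2 fold changes of KRT14 of -2.90 and -1.88. EPCAM, also among the 8, was higher on adjusted p alone in both lines, by 0.40 (adjusted p = 6.7e-06) and 0.87 (adjusted p = 2.8e-05). CDH1 did not pass, at 0.03 and -0.02. The part of the 8 markers in the mucin results was not tested. The 7 leukocyte and endothelial markers summed to 21.8 to 22.4 CPM with vehicle and 14.8 to 18.2 with DOX in CAL27 cells and to at most 1.51 CPM in any HSC3 library. In CAL27 cells nearly all of this sum was CDH5, an endothelial cadherin at 1551 to 2048 counts with vehicle and 880 to 1245 with DOX (log2 fold change -0.55, adjusted p = 6.9e-05), and CD14, a monocyte marker at 478 to 670 and 405 to 446 counts, while PTPRC, the pan-leukocyte marker, had 2 to 8 counts. Their part in the mucin results was not tested either. Because these are bulk cultures, fewer cells with a transcript and less transcript per cell cannot be told apart.

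Among the 8 genes, MUC1 and MUC16 had the highest levels per length in CAL27 vehicle cells, and MUC1 the highest in HSC3 vehicle cells. Not divided by length, mean MUC16 was above MUC1 in CAL27 vehicle cells, at 222 against 60.9 CPM. In HSC3 vehicle cells the 2 were level, at 1.597 and 1.598 CPM. To compare genes, levels were divided by length and are given as CPM per kilobase (kb) of exon, as mean ± SD of 3 libraries. CAL27 vehicle cells held MUC1 at 25.4 ± 1.09 and MUC16 at 5.04 ± 0.805 CPM per kb. MUC4 (0.258 ± 0.0172) and MUC13 (0.255 ± 0.0525) followed and their libraries overlapped, as did those of MUC20 (0.111 ± 0.0206) and MUC15 (0.0861 ± 0.0243). MUC2 (0.0183 ± 0.00357) and MUC12 (0.00258 ± 0.00154) were lowest. By this measure MUC1 stood above 94.0% and MUC16 above 75.5% of the 26520 genes with counts in these libraries.

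In HSC3 vehicle cells the order was different and the levels were far lower. MUC1 was again first, at 0.665 ± 0.0671 CPM per kb, above 49.2% of 23170 genes with counts. MUC2 (0.0448 ± 0.0247), MUC16 (0.0361 ± 0.00449) and MUC13 (0.0151 ± 0.0261) came next and neighbours in that order overlapped. MUC20, MUC4 and MUC12 stood under 0.001 CPM per kb, and MUC15 had no count in any HSC3 library.

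**Figure D1:**
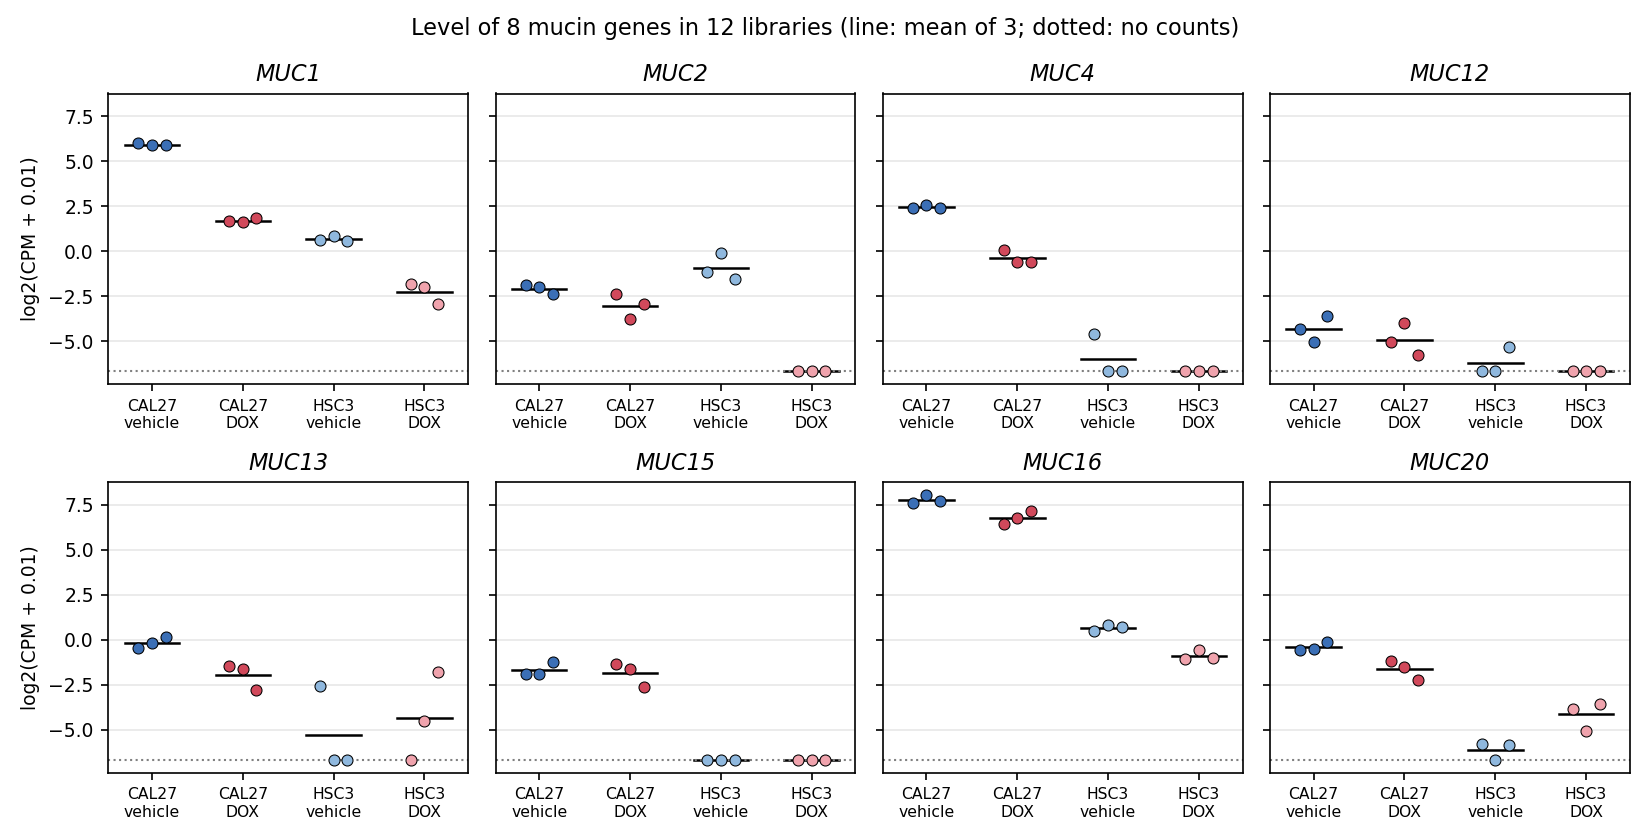
Level of each of the 8 mucin genes in the 12 libraries, as log2 of CPM plus 0.01 (vertical axis) by group (horizontal axis), with a line at the mean of 3 libraries and a dotted line where a library has no count. MUC1 and MUC4 fall between the CAL27 groups with no overlap, MUC16 is lower with DOX in both lines, and MUC4, MUC12 and MUC15 sit at or near the dotted line in HSC3 cells.

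Between the lines, 6 of the 7 mucins tested were called lower in HSC3 than in CAL27 vehicle cells and 1, MUC2, was called higher. MUC4, MUC13, MUC15 and MUC20 passed the count filter through their CAL27 libraries, so for these 4 only a lower call was possible and the tally is no result about the mucins as a group. A gene was called where its p-value, after Benjamini-Hochberg adjustment across every gene in the test, was below 0.05 and its level differed more than 2-fold. Of the 20694 genes in this test 31.9% were called, 18.7% as lower and 13.2% as higher in HSC3 cells, and on adjusted p alone 32.3% were lower and 30.6% higher. In CPM, MUC1 was at 63.9, 58.9 and 59.9 in CAL27 cells and at 1.51, 1.78 and 1.499 in HSC3 cells. The groups lay far apart, with a log2 fold change of -4.98 (SE 0.146, adjusted p = 1.7e-13), 31.7-fold lower in HSC3 cells. MUC16 stood at 192, 262 and 213 CPM against 1.38, 1.76 and 1.65 CPM, a log2 fold change of -6.85 (SE 0.205, adjusted p = 2.2e-13).

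MUC4 had 658, 570 and 573 counts in CAL27 and 4, 0 and 0 in HSC3 vehicle libraries. The ratio of the summed levels was 469, with a 95% exact interval of 183 to 1725 that covers counting error only (adjusted p = 1.1e-08). MUC20 had 83, 68 and 101 against 1, 0 and 1 counts, a ratio of 131 with an interval of 36.0 to 1091 (adjusted p = 3.1e-06). MUC15 had 33, 25 and 45 counts in CAL27 cells and none in HSC3 cells, which makes it at least 11.6-fold lower at a floor of 3 counts per library and at least 1.98-fold lower at a floor of 3 molecules (adjusted p = 2.2e-04).

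The other 2 differences were less firm. MUC13, with 92, 84 and 120 counts against 20, 0 and 0, was lower in HSC3 cells by a log2 fold change of -3.73 (SE 1.27, adjusted p = 0.018), and all its HSC3 counts came from 1 library. It was not called with no filter on low counts (-3.76, adjusted p = 0.052), or without CAL27 vehicle replicate 3 (-3.58, adjusted p = 0.050), HSC3 vehicle replicate 2 (-3.22, adjusted p = 0.060) or HSC3 vehicle replicate 3 (-3.14, adjusted p = 0.054). MUC2 was higher in HSC3 cells, at 0.443, 0.925 and 0.336 CPM against 0.269, 0.246 and 0.182 CPM. Its log2 fold change of 1.56 (SE 0.633, adjusted p = 0.047) was called in 6 of 16 other settings, and without HSC3 vehicle replicate 2, its highest library, it was 1.01 (adjusted p = 0.25). MUC12, with 5, 2 and 8 counts in CAL27 and 0, 0 and 2 in HSC3 vehicle libraries, was too low to be tested.

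MUC1, the target of the shRNA, fell with DOX in both lines. CAL27 vehicle libraries held 8062, 5753 and 6589 counts of MUC1 and DOX libraries 306, 285 and 419, or 63.9, 58.9 and 59.9 CPM against 3.19, 3.06 and 3.58 CPM. Each DOX library was far below each vehicle library, and the DOX mean was 5.38% of the vehicle mean. The log2 fold change was -4.21 (SE 0.0666, adjusted p = 1.6e-19), 18.5-fold lower, and by p-value MUC1 ranked 1 of the 19239 genes tested in CAL27 cells. It stood then above 59.2% of genes with counts.

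HSC3 vehicle libraries held 191, 162 and 196 counts of MUC1 and DOX libraries 46, 36 and 16, or 1.51, 1.78 and 1.499 CPM against 0.279, 0.244 and 0.120 CPM. The groups did not overlap and the DOX mean was 13.4% of the vehicle mean, with a log2 fold change of -2.88 (SE 0.376, adjusted p = 2.0e-04), 7.38-fold lower. At the estimated counts per molecule the DOX counts stand for 2.67, 4.03 and 1.42 molecules, so the size of this fall is known only roughly.

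The fall of MUC1 was smaller in HSC3 cells. The interaction of cell line and DOX was 1.36 on the log2 scale (SE 0.247, adjusted p = 0.0010), where 20.6% of 20694 genes passed an adjusted p of 0.05, 8.25% with a value above 0 and 12.3% with one below. With each count divided by the estimated counts per molecule it was 1.31 and no longer passed (adjusted p = 0.097).

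The region before the start of MUC1 is shown, with motif matches in the promoters of the members, as a description only. MUC1 is the target of the shRNA, and the part of any promoter in the changes with DOX was not tested. The 250 bases before the start of MUC1 in RefSeq, on the minus strand of GRCh38.p14 at chr1:155192916-155193165, are in lower case, and the capitals mark the 2 motifs found there among 5 searched on both strands.
MUC1 upstream region: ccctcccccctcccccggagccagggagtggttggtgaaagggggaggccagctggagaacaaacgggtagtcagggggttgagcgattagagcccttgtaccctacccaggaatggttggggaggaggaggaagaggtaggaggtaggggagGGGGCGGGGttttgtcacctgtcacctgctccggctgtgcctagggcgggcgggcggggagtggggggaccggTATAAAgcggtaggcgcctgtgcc
The motifs were GGGGCGGGG (a GC box), TATAAA (the TATA box), TTCNNNGAA (the form that STAT factors bind), the interferon-stimulated response element and TGACTCA (the AP-1 site). A GC box and a TATA box were found before MUC1, the STAT form before MUC4 and the AP-1 site before MUC13. The letters TATAAA were also found before MUC12, but on the strand opposite to the gene. None of the 5 was found before MUC2 or MUC16, and no promoter of the 6 members with an entry held the interferon element. Of 35116 promoters of 300 bases in RefSeq, 15.7% held the GC box, 11.5% the TATA box, 7.66% the STAT form, 3.57% the interferon element and 4.95% the AP-1 site. A match of letters is a description and not a site of binding.

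Of 17 genes within 100 kb of MUC1 in the tables, none fell as far as MUC1. In CAL27 cells 15 were tested, of which 5 were lower and 1 was higher on adjusted p alone, against 21.8% and 22.6% of all genes tested. EFNA1, an ephrin ligand, was the only one called, with a log2 fold change of -1.08 (adjusted p = 1.6e-11), and THBS3, a thrombospondin, had -0.72. In HSC3 cells 14 were tested, with 0 lower and 3 higher against 15.4% and 13.0% of all genes, and DPM3, a subunit of dolichol-phosphate mannose synthase, was called at 1.08. TRIM46, the nearest gene tested, had log2 fold changes of -0.29 (adjusted p = 0.39) and 0.68 (adjusted p = 0.082).

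**Figure D2:**
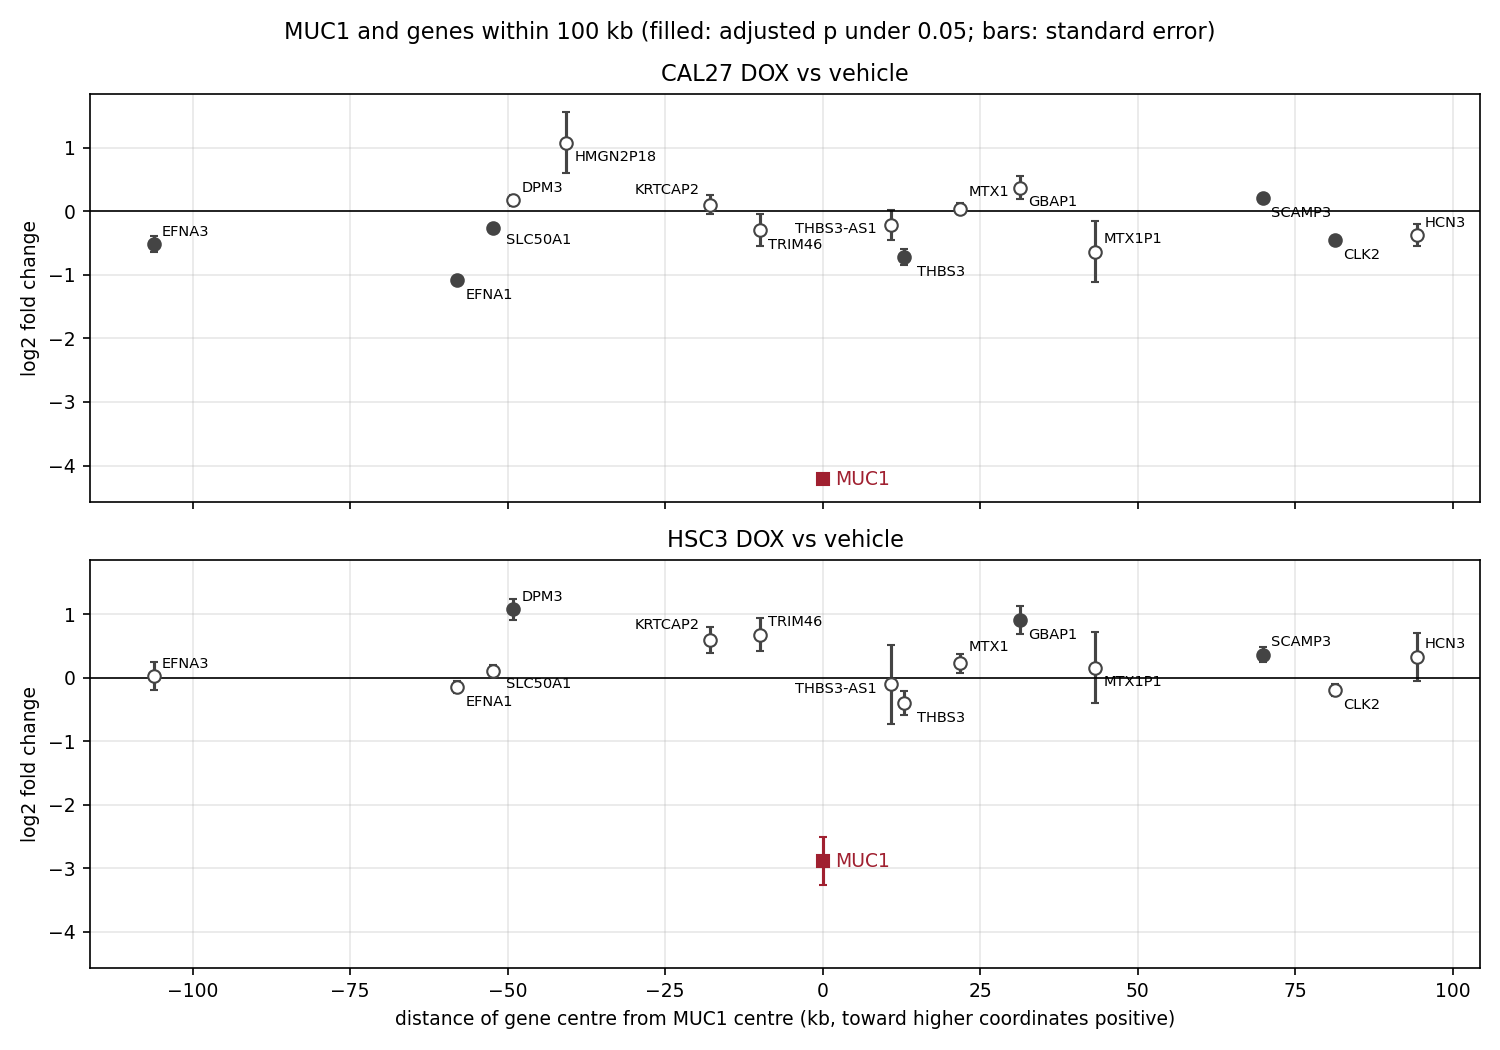
Log2 fold change with DOX (vertical axis, bars are standard errors) of MUC1 (square) and of genes with an edge within 100 kb of it (circles), by the distance of their centres in kb (horizontal axis), in CAL27 cells (top) and HSC3 cells (bottom). MUC1 lies at -4.21 and -2.88, and its neighbours lie between -1.08 and 1.08.

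In CAL27 cells the other membrane mucins fell or did not pass, and none rose. Of the 7 members tested, 4 (MUC1, MUC4, MUC13 and MUC20) were called lower and 0 higher, where 6.42% of all 19239 genes tested were called, 5.11% as lower and 1.31% as higher. By adjusted p alone 5 were lower, with MUC16. The same 5 had groups that did not overlap, as did 26.3% of all genes tested on the lower and 26.0% on the higher side. The median log2 fold change of the 7 tested was -1.23, beside -0.0052 over all genes tested. These counts include MUC1, which the shRNA targets.

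MUC4 fell most after MUC1. Vehicle libraries held 658, 570 and 573 counts and DOX libraries 102, 62 and 78, or 5.21, 5.84 and 5.21 CPM against 1.06, 0.665 and 0.667 CPM. All DOX libraries lay well under all vehicle libraries, at a mean of 14.7% of vehicle, and the log2 fold change was -2.77 (SE 0.159, adjusted p = 2.5e-11).

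MUC13, a membrane mucin of intestinal and other epithelia with EGF-like domains, was at 92, 84 and 120 counts in vehicle and 34, 30 and 16 in DOX libraries, or 0.729, 0.860 and 1.09 CPM against 0.354, 0.322 and 0.137 CPM. The groups did not overlap, and the log2 fold change was -1.74 (SE 0.318, adjusted p = 1.4e-04). MUC20 was at 83, 68 and 101 counts in vehicle and 41, 32 and 24 in DOX libraries. These groups were apart too, with a log2 fold change of -1.23 (SE 0.299, adjusted p = 0.0020), but part of its reads may come from other genes that share its sequence. MUC20P1 fell by 1.59 on the log2 scale (adjusted p = 8.5e-05), and MUC20-OT1, which overlaps MUC20 and is more abundant at 314 to 477 counts, had -0.14 (adjusted p = 0.40). In 1 fit over all 12 libraries MUC13 (adjusted p = 0.34) and MUC20 (adjusted p = 0.14) were not called, at nearly the same fold changes.

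MUC16 was lower with DOX and missed the fold threshold narrowly. Vehicle libraries held 24269, 25548 and 23450 counts and DOX libraries 8163, 9984 and 16882, or 192, 262 and 213 CPM against 85.1, 107 and 144 CPM. The groups did not overlap, although the DOX library in column 6 of the table was nearer to vehicle than the others. The log2 fold change was -0.99 (SE 0.251, adjusted p = 0.036), and without that library it was -1.20 (adjusted p = 0.020), which is called, while MUC20 at -0.97 then was not. Without any 1 of the other 5 libraries MUC16 missed the adjusted p threshold, at adjusted p values of 0.069 to 0.12 and log2 fold changes of -1.09 to -0.82, so its fall in CAL27 cells is less firm than those of MUC1 and MUC4.

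MUC2, MUC15 and MUC12 gave no call in CAL27 cells. MUC2 was at 34, 24 and 20 counts in vehicle and 18, 6 and 14 in DOX libraries, which overlap as CPM, with a log2 fold change of -0.90 (SE 0.476, adjusted p = 0.14). MUC15 had 33, 25 and 45 against 37, 30 and 18 counts, with groups that overlap and a log2 fold change of -0.12 (SE 0.397, adjusted p = 0.84) whose sign depended on single libraries. MUC12 had 2 to 8 and 1 to 5 counts and was not tested.

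In HSC3 cells 3 of the 8 members were high enough to be tested, and these (MUC1, MUC2 and MUC16) were called lower, where 5.98% of the 18021 genes tested were called, 4.40% as lower and 1.58% as higher. MUC2 passed the count filter through its vehicle libraries alone, and MUC13 and MUC20, with more counts in DOX than in vehicle libraries, did not pass it, so the filter set part of this tally. The 3 genes had groups that did not overlap, as did 22.8% of all genes tested on the lower and 19.8% on the higher side. MUC16 was at 174, 160 and 216 counts in vehicle and 78, 98 and 64 in DOX libraries, or 1.38, 1.76 and 1.65 CPM against 0.473, 0.664 and 0.481 CPM. The groups were apart, the DOX mean was 33.8% of the vehicle mean, and the log2 fold change was -1.56 (SE 0.289, adjusted p = 0.0020). This response of MUC16 did not pass the test of a difference from that in CAL27 cells, with an interaction of -0.57 (SE 0.294, adjusted p = 0.21).

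MUC2 had 56, 84 and 44 counts in HSC3 vehicle libraries and none in the 3 DOX libraries (adjusted p = 6.4e-04). It was thus at least 27.9-fold lower at a floor of 3 counts per library. Because 1 molecule was estimated to give many counts in these libraries, a bound at 3 molecules per library was also taken, at least 2.27-fold lower. With counts divided by counts per molecule MUC2 was too low to be tested.

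The other 5 members were scarce in HSC3 cells. MUC4 had 4, 0 and 0 counts with vehicle and none with DOX, MUC12 had 0, 0 and 2 and then none, and MUC15 had none in any. MUC13 was at 20, 0 and 0 in vehicle and 0, 5 and 37 in DOX libraries, so that 1 library led each group, and the ratio of DOX to vehicle was 1.64 with an interval of 0.942 to 2.95. MUC20 was at 1, 0 and 1 counts in vehicle and 10, 3 and 10 in DOX libraries, a ratio of 8.98 with an interval of 2.22 to 78.6, again for counting error only. At the estimated counts per molecule these DOX counts come to 0.581, 0.336 and 0.886 molecules. A library with counts must hold at least 1 molecule, so the estimate is too high for this gene. The DOX counts were under the count minimum of the HSC3 fit. In 1 fit over all 12 libraries MUC20 was called higher in HSC3 cells. It passed the count filter of that fit through its CAL27 libraries, so the call rests on these few HSC3 counts.

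**Figure D3:**
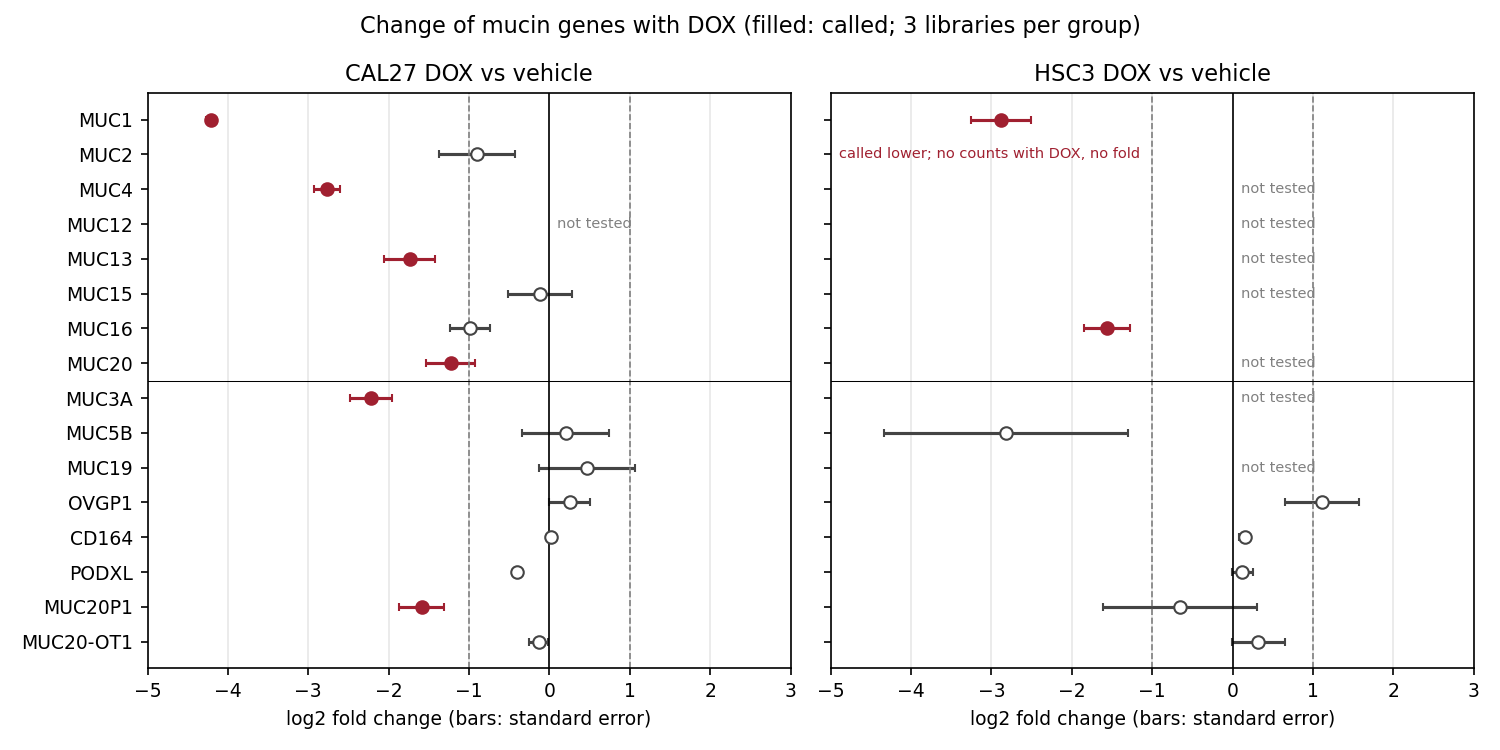
Log2 fold change with DOX (horizontal axis, bars are standard errors) of the 8 mucins (above the line) and of other mucin genes and MUC20 copies (below it) in CAL27 cells (left) and HSC3 cells (right), with filled points for called genes and dashed lines at -1 and 1. The filled points lie from -1.23 to -4.21 in CAL27 cells and at -1.56 and -2.88 in HSC3 cells, where MUC2, called lower with no counts in DOX libraries, is marked in words and has no point.

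Mucins outside the 8 showed no rise that was called in either line. Of 15 in the tables, 6 passed the count filter in CAL27 cells, and 4 did so in HSC3 cells. Of all genes tested only 1.31% in CAL27 and 1.58% in HSC3 cells were called higher. With so few mucins tested, the lack of a called rise is no result about them as a group. MUC3A, a membrane mucin encoded beside MUC12, was at 196, 182 and 215 counts in vehicle and 39, 18 and 62 in DOX libraries of CAL27 cells. Every DOX library was below every vehicle library, with a log2 fold change of -2.22 (SE 0.260, adjusted p = 9.6e-07). PODXL, a sialomucin of podocytes and stem cells, was lower by less (log2 fold change -0.41, adjusted p = 1.2e-07). CD164, a sialomucin with a level per length above that of MUC1 at 56.7 CPM per kb, had 0.03 (adjusted p = 0.66). The gel-forming mucins MUC5B (0.20, adjusted p = 0.80) and MUC19 (0.47, adjusted p = 0.57) and the oviduct glycoprotein OVGP1 (0.25, adjusted p = 0.47) did not pass. In HSC3 cells OVGP1 had a log2 fold change of 1.11 (adjusted p = 0.10), CD164 0.15 (adjusted p = 0.15), PODXL 0.12 (adjusted p = 0.56) and MUC5B -2.82 (adjusted p = 0.21), the last with 10 to 20 counts against 0 to 8. MUC5AC, MUC6, MUC7, MUC17, MUC21, MUC22, MUCL1, MUCL3 and EMCN had at most 20 counts in any library.

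The share of MUC1 among the 8 mucins was lower with DOX, and so was the summed level of the others in CAL27 cells. The other 7 added up to 5.001, 6.64 and 5.66 CPM per kb in CAL27 vehicle libraries and 2.26, 2.696 and 3.42 with DOX. These do not overlap, and MUC16 made up 85.1% to 95.5% of the sum in all 6 libraries. The share of MUC1 in the 8 went from 81.5% ± 2.74 to 33.1% ± 3.43, and MUC16 became the first mucin by length-corrected level at 2.54 ± 0.679 CPM per kb, above MUC1 at 1.36 ± 0.114, although it was itself lower. MUC15, MUC13, MUC20 and MUC4 followed at 0.0801 to 0.0380 CPM per kb, each overlapping the next. In HSC3 cells the other 7 summed to 0.114, 0.113 and 0.0660 CPM per kb with vehicle and 0.0196, 0.0277 and 0.101 with DOX, which overlap. MUC1 made up 87.3% ± 2.92 of the 8 with vehicle and 85.6%, 78.6% and 33.1% with DOX, the last in the library where MUC13 had 37 counts. By length-corrected level the order with DOX was MUC1 (0.0893 ± 0.0347), MUC13 (0.0297 ± 0.0434), MUC16 (0.0122 ± 0.00245) and MUC20 (0.00761 ± 0.00415), each overlapping the next, with no counts of the other 4. These sums have no test.

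**Figure D4:**
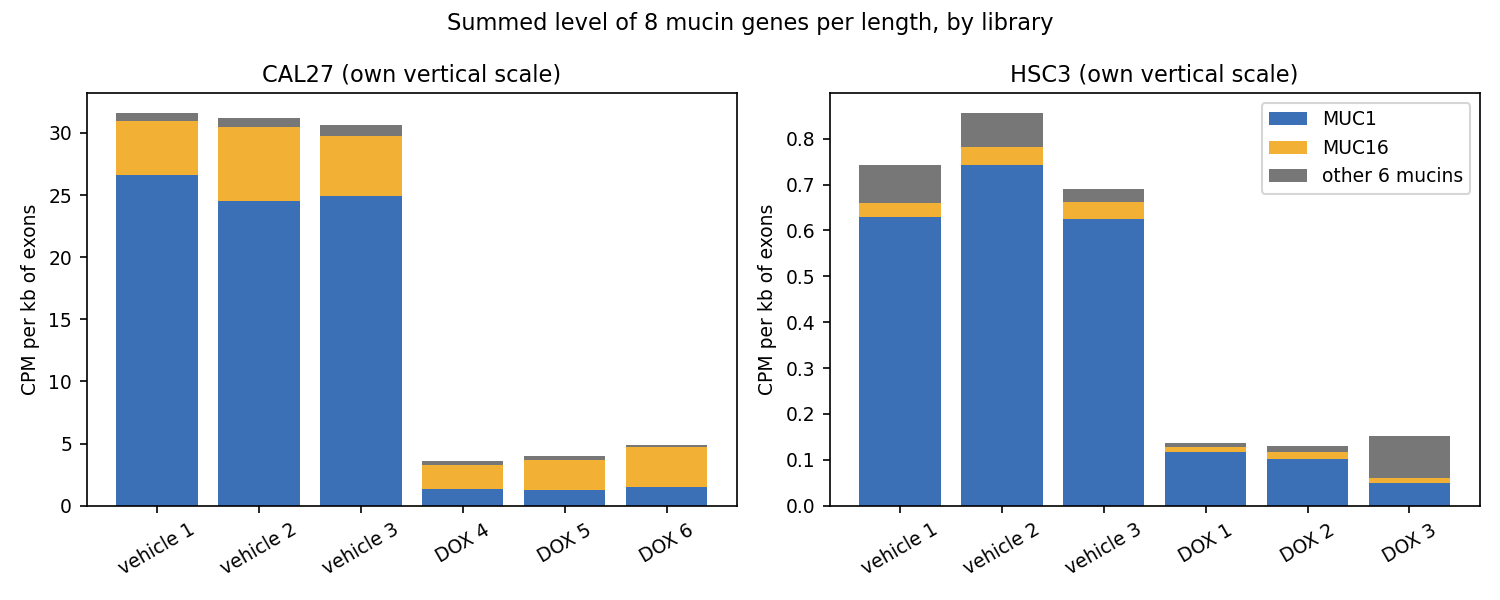
Summed level of the 8 mucins per length in each library (bars from 0, in CPM per kb of exons), split into MUC1, MUC16 and the other 6 mucins, for CAL27 cells (left) and HSC3 cells (right) on separate vertical scales. The 3 CAL27 DOX bars hold a summed level of the other 7 mucins of 2.26 to 3.42, under the 5.001 to 6.64 of vehicle libraries, while in HSC3 cells 1 DOX bar holds 0.101 for the other 7 and the other 2 hold 0.0196 and 0.0277, beside 0.0660 to 0.114 with vehicle.

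The response of MUC1 was also set beside those of all genes. Over the 12 libraries, among 12832 genes whose log2 CPM averaged at least 0, the genes with the highest Pearson correlation with MUC1 were MX1 (0.994), OAS1 (0.990), TNFSF10 (0.987), GPR158 (0.986) and MMP10 (0.986). MX1 and OAS1 are antiviral effectors induced by interferon, TNFSF10 encodes the death ligand TRAIL, and MMP10 is a stromelysin. With the mean of each line subtracted they were PELI1 (0.994), PTPRG (0.990), OAS1 (0.990), KCNJ15 (0.989) and MX1 (0.989). MUC16 ranked 806 (r = 0.857) and 672 (r = 0.878), and MUC1 was the only other member with a mean level high enough. These points share a small number of groups, so the coefficients describe the 4 groups rather than single libraries.

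Genes that work with mucins were called in few cases. Of 18 partners and sheddases of MUC1, MUC4 and MUC16, among them EGFR, ERBB2 and ADAM17, 10 were lower and 3 were higher on adjusted p alone in CAL27 cells, where 21.8% of all genes tested were lower and 22.6% higher, and none was called. In HSC3 cells 6 were lower and 3 higher, where 15.4% and 13.0% of all genes tested were, and 1 was called. This was MSLN (mesothelin, the ligand of MUC16), at 24 to 44 counts in vehicle and 0 to 6 in DOX libraries (adjusted p = 0.031). MSLN passed the count filter through its vehicle libraries alone, so only a lower call was possible. Its fitted log2 fold change of -4.33 (SE 1.32) is no firm measure of size. Of the enzymes that build mucin-type O-glycans, 23 of 26 were tested in CAL27 cells, where 8 were lower and 6 higher against the same 21.8% and 22.6%. Of these enzymes 2 were called, both lower. GCNT3, which makes the branched core structures of mucins, had a log2 fold change of -2.16 (adjusted p = 2.7e-04) and GALNT14, which starts O-glycans, -1.24 (adjusted p = 4.4e-07). In HSC3 cells 22 were tested, with 7 lower and 6 higher against 15.4% and 13.0%. Here 2 were called lower, GALNT18 (-1.25) and GALNT12 (-1.01), and 1 higher, GCNT4 (1.18). The calls of these lists have no test as a set. The partners had median log2 fold changes of -0.16 (CAL27) and -0.021 (HSC3) and the enzymes of -0.031 (CAL27) and -0.11 (HSC3), beside -0.0052 and -0.0097 over all genes tested.

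Markers of goblet or secretory epithelium, in which mucins are made for secretion, were few. Of 12, 5 passed the count filter in CAL27 cells, and 3 did so in HSC3 cells. In CAL27 cells 1 was called lower and 1 higher, where 5.11% and 1.31% of all genes tested were. SPDEF, a goblet cell transcription factor, was called lower in CAL27 cells (log2 fold change -1.48, adjusted p = 0.0041), and FOXA2, a transcription factor of foregut epithelia, was called higher (1.01, adjusted p = 1.0e-07). None of the 3 tested in HSC3 cells passed an adjusted p of 0.05.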

How the data were processed

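RNA-seq counts of 2 cell lines that carry tet-MUC1shRNA were used, with 3 libraries in each of 4 groups. Libraries were made with TruSeq Stranded mRNA, and the submitters' processing notes name FastQC 0.11.9, STAR 2.7.9a, featureCounts of Subread 2.0.1 and GRCh38. The authors deposited whole-number counts per gene symbol, without normalization, in 1 table per cell line. The annotation counted, the use of strand, and the treatment of duplicated and multiply mapped reads are not given in the sources used here, so copies and overlapping genes may share reads. Of 39368 symbols, 38934 matched GENCODE v44, the source of coordinates and exon lengths, which may differ from what was counted.

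Counts were analysed in R 4.3.3 with edgeR 4.0.16 (TMM, filterByExpr at min.count 10 and min.total.count 15, robust glmQLFit, glmQLFTest, two-sided), each line alone. The interaction and the comparison of vehicle groups came from 1 fit of all 12 libraries. P-values were adjusted across all genes in a test. Calls took an adjusted p below 0.05 with more than a 2-fold difference, and the interaction the adjusted p alone. The study used DESeq2, run here as an alternative (version 1.42.0). CPM are TMM-scaled within each line. An exact permutation test of 3 libraries against 3 cannot go below p = 0.1, so none was used. P-values measure the spread between triplicate cultures only. Counts per molecule were estimated from the share of zeros among genes with an expected count of 8 to 16. The estimate allows for counting error only, with no term for spread between cultures, and is rough. Sequences were read from GRCh38 and, for promoters, from RefSeq (GRCh38.p14), where 6 of the 8 genes had an entry.

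In the CAL27 table the DOX columns are numbered 4 to 6 and could be mapped to the group but not to a replicate. The 8 genes and all lists were chosen with earlier results of these data known. All 8 genes are named, with every tested gene of the other mucins, up to 4 called genes per other list, genes that overlap a member and the 5 genes most like MUC1. MUC1 neighbours, MUC5AC and the other mucins named as too low, markers and partners named as examples were chosen after their values were seen. Alternatives were the size factors, the low-count filter, DESeq2, counts divided by counts per molecule, the thresholds, 1 fit over 12 libraries, the replicate block and each library left out.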

Additional observations from a re-analysis of the deposited data

Results flagged for a closer look

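The response to DOX differed between the lines for 3 of the 7 mucins tested for an interaction of line and DOX (adjusted p under 0.05). Of all 20694 genes in this test 20.6% passed. MUC4, MUC13, MUC15 and MUC20 entered this test through their CAL27 libraries. MUC15 had no count in any HSC3 library, so no interaction could be estimated for it. The tally is therefore no result about the mucins as a group. For MUC1 the HSC3 minus CAL27 response was 1.36 on the log2 scale (edgeR, adjusted p = 0.0010), with log2 fold changes of -2.88 and -4.21 and all 3 DOX libraries below all vehicle libraries in each line. For MUC2 the fitted value was -8.32 (adjusted p = 5.9e-04), which is no measure of size because the HSC3 DOX libraries have no counts. For MUC20 it was 4.22 (adjusted p = 0.0078), with 0 to 1 counts in HSC3 vehicle libraries and 3 to 10 in HSC3 DOX libraries. MUC20 passed the count filter of this fit through its CAL27 libraries. With counts divided by counts per molecule MUC1 (adjusted p = 0.097) and MUC20 (5.08, adjusted p = 0.078) no longer passed and MUC2 was not tested.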

How the results depend on the processing

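The fall of MUC1 was called in every alternative, from -4.28 to -4.16 on the log2 scale over 12 in CAL27 cells and from -3.12 to -2.61 over 13 in HSC3 cells (largest adjusted p 0.0024). In CAL27 cells 4 mucins were called in all alternatives at the same thresholds except 1 fit over all 12 libraries, which called 2 (MUC1 and MUC4) and where the cause was not tested. The interaction called 3 mucins, and 0 with counts divided by counts per molecule, where counts are fewer. At an adjusted p alone, or a fold change above 1.5, 5 were called in CAL27 cells, with MUC16 added. MUC15 in CAL27 cells changed sign to 0.12 without vehicle replicate 3 and to 0.20 without the DOX library in column 6, with a range of -0.40 to 0.20 as each library was left out. Leaving out each library in turn, the calls numbered 4 to 4 in CAL27 cells, 3 to 3 in HSC3 cells, 3 to 4 for the interaction and 5 to 7 between vehicle groups. Without HSC3 vehicle replicate 1, MUC13 passed the interaction test at 8.48 (adjusted p = 0.035), with no HSC3 vehicle counts left.

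HSC3 vehicle and DOX libraries share replicate numbers. With the replicate number as a block the same 3 mucins were called. The deviations of same-numbered libraries from their group means correlated at -0.20, 0.35 and -0.35 over 9064 genes, which gave no clear sign of pairing. With 3 libraries per group this cannot exclude that same-numbered cultures belong together. No paired analysis was possible in CAL27 cells or for the interaction because the CAL27 DOX columns carry no replicate number.

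Precision in HSC3 cells is limited by molecules: the MUC1 counts with DOX were estimated to stand for 1.42 to 4.03 molecules per library.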
